A study of Mus musculus with 15 samples.

Results

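A set of 10 genes that identify macrophages was followed across the sorted aortic cells of the study: Adgre1, Fcgr1, Csf1r, Mertk, Itgam, Cd14, Cd68, Lyz2, Aif1 and Ptprc. They were chosen by name, as the genes of both surface proteins used in the sort (Adgre1 encodes F4/80 and Fcgr1 encodes CD64) and as commonly used macrophage or leukocyte markers. All 10 were found in the deposited table of 47729 features, on 11 rows, because the symbol Itgam stands on 2 rows. The cells were F4/80+ CD64+ macrophages from the aortas of Apoe-/- mice (labelled Apoe dko) on a high fat diet, named a Western diet in the protocol, for 4 weeks. One group was sorted as Olfr2+ and the other as Olfr2-, Olfr2 being an odorant receptor. Both groups came from pooled aortic cell suspensions of 4 female mice and so share the Apoe deficiency, the diet, the tissue and the F4/80+ CD64+ gate. The age of the mice is not given in the labels. No wild-type, chow-fed or ungated group was analysed here.

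Adgre1 is an adhesion G protein-coupled receptor and the classical surface marker of mature mouse macrophages. Macrophages depend on the growth factor receptor Csf1r for survival, take up apoptotic cells through Mertk, recognise antibody-coated and bacterial particles through Fcgr1, Itgam and Cd14, and digest what they take up in lysosomes rich in Cd68 and lysozyme. In the atherosclerotic aorta such cells take up modified lipoproteins and dead cells, and many of them arise from blood monocytes that enter the wall. Ptprc encodes CD45, which leukocytes of all kinds carry, and Aif1 encodes the actin-bundling protein IBA1.

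The table held 15 columns, 10 labelled Olfr2+ and 5 labelled Olfr2-, made by Smart-Seq2 from sorts of 100 to 200 cells. In that method the cDNA of a few cells is amplified by PCR, here for 18 cycles, before sequencing. Columns were summed to the numbered samples of their titles, which gave Olfr2+ samples 2, 3 and 4 and Olfr2- samples 1, 3 and 4. Column totals were 29.9 to 95.6 M counts (M, 1000000) in Olfr2+ and 30.5 to 53.2 M in Olfr2-. The 7 columns above 60 M, called deep here, were all Olfr2+ and made up sample 2 and most of sample 3. The share of counts on protein-coding genes was 94.62 to 97.46% in those 7 columns and 78.52 to 80.43% in the 3 other Olfr2+ columns (3D, 4A and 4B), against 79.55 to 85.64% in Olfr2-. Label and depth therefore overlap, and every comparison of the 10 genes is also given for the other 8 columns alone, called shallower here, which hold Olfr2+ samples 3 and 4 and Olfr2- samples 1, 3 and 4. Olfr2 itself went against the sort label, with 1, 9 and 8 counts in Olfr2+ samples 2, 3 and 4, against 76, 34 and 35 counts in Olfr2- samples 1, 3 and 4. Olfr2- column 3A held 0 counts of it. By the edgeR test described below, the log2 difference of Olfr2 was -3.55 ± 1.39 (adjusted p = 0.104). From the shallower columns it was -1.82 ± 1.13 (adjusted p = 0.561), and Olfr2 passed in neither fit. In both, all Olfr2+ samples lay below all Olfr2- samples, as for 22.1% and 17.1% of the genes tested. Below, Olfr2+ and Olfr2- are the labels of the libraries and not a measured level of Olfr2. An exchange of the labels, which would turn every direction given here, was not tested.

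Every one of the 10 genes was detected in each of the 15 columns, and the lowest count of any of them was 29, for Fcgr1 in column 4A of Olfr2+. Their levels spanned a wide range when counts per 1000000 of the column total (CPM) were divided by transcript length (CPM per kilobase). Lyz2 stood highest, with a median of 3602 CPM per kilobase over the 15 columns and a range of 543.8 to 7854. Ptprc followed with a median of 160.6, Cd68 with 117.1, Csf1r with 92.2 and Cd14 with 50.2 on the same scale. Adgre1 had a median of 41.4, Itgam of 32.5 and Aif1 of 19.2 CPM per kilobase. The place of Itgam is uncertain, because 68.7% of its exon bases are shared with another gene model in the annotation used for lengths. Fcgr1 and Mertk came last, with medians of 1.735 and 0.723, and their ranges of 0.210 to 39.6 and 0.0778 to 17.0 overlapped almost completely. The ranges of neighbours in this order overlapped in each case. Ranges over columns do not compare genes within a column, and such differences were not tested. Lyz2 and Ptprc, for example, had 6569 and 81.1 CPM per kilobase in Olfr2+ column 2A, and 572.4 and 575.1 in Olfr2- column 4A. By rank among the genes detected in a column, Lyz2 had a median percentile of 99.9, Ptprc of 99.2 and Csf1r of 98.5, whereas Fcgr1 had 76.0 and Mertk 68.4.

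**Figure D1:**
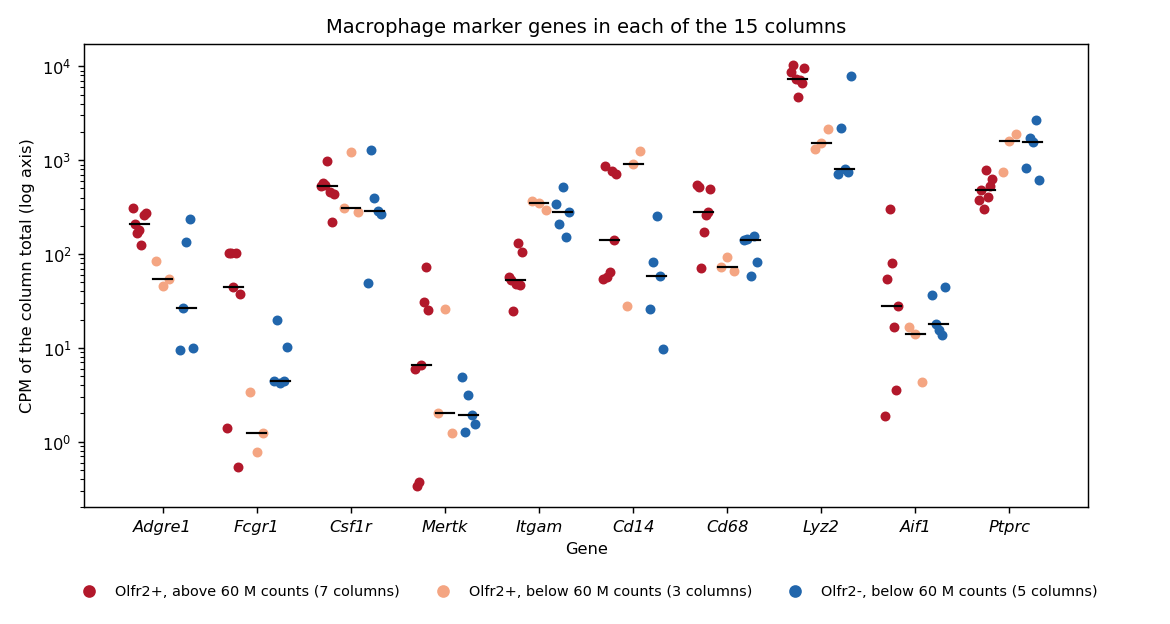
Level of each of the 10 genes in each of the 15 columns, as CPM of the column total on a log axis, with 7 deep Olfr2+ columns left, 3 other Olfr2+ columns in the middle and 5 Olfr2- columns right, and the median of each as a line. Itgam was lower in all 7 deep columns than in the other 8, Lyz2 reached 10335 CPM, and Fcgr1 lay between 0.544 and 102.6 CPM within the deep columns.

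The gene of the sort antigen F4/80, Adgre1, was present in every column at very uneven levels. It had a lowest, median and highest value of 123.4, 210.1 and 311.9 CPM of the column total in the deep Olfr2+ columns. The other 3 Olfr2+ columns (3D, 4A and 4B) had 84.3, 46.0 and 54.6 CPM, and the 5 Olfr2- columns (1A, 3A, 3B, 4A and 4B) had 9.48, 26.7, 134.2, 235.0 and 10.04 CPM. The Olfr2- columns thus spread on both sides of the Olfr2+ columns of like depth. TMM scaling corrects the totals for a few genes that take a large share of them. Its factors over all columns were 0.485, 0.705 and 0.868 for Olfr2+ samples 2, 3 and 4. They were 1.66, 1.337 and 1.518 for Olfr2- samples 1, 3 and 4. CPM are divided by these factors, which raises every Olfr2+ sample and lowers every Olfr2- sample. After this scaling Adgre1 was at 446.6, 282.5 and 57.4 CPM in Olfr2+ samples 2, 3 and 4, against 5.74, 50.1 and 90.8 CPM in Olfr2- samples 1, 3 and 4. Olfr2+ sample 4 lay below Olfr2- sample 4, so the groups overlapped. Differences between the labels are given as log2 fold changes of Olfr2+ over Olfr2- with their standard error (±), from edgeR's quasi-likelihood test, and a gene is said to pass at an adjusted p under 0.05. For Adgre1 edgeR gave 2.42 ± 1.11 (adjusted p = 0.138 over 24362 genes), and 0.62 ± 1.336 (adjusted p = 0.884) from the shallower columns. Adgre1 did not pass the test in either fit. In bulk samples such as these, fewer cells of a type and less RNA per cell cannot be told apart.

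Fcgr1, the high-affinity receptor for IgG and the gene of the sort antigen CD64, was the second lowest of the 10 genes per kilobase. Deep Olfr2+ columns 2A, 2B, 2C and 2D had 1.40, 102.0, 101.8 and 44.2 CPM of the column total, and deep columns 3A, 3B and 3C had 102.6, 0.544 and 37.2 CPM. Olfr2+ columns 3D, 4A and 4B had 3.43, 0.772 and 1.24 CPM, and Olfr2- columns 1A, 3A, 3B, 4A and 4B had 4.396, 19.95, 4.18, 4.49 and 10.3 CPM. High and low levels of Fcgr1 thus occurred within the same numbered Olfr2+ sample. The summed samples had 131.8, 61.2 and 1.13 TMM-scaled CPM in Olfr2+ samples 2, 3 and 4, against 2.66, 10.5 and 4.62 CPM in Olfr2- samples 1, 3 and 4. For Fcgr1 edgeR gave a log2 difference of 3.45 ± 1.46 over all columns (adjusted p = 0.120) and of -1.28 ± 1.44 over the shallower ones (adjusted p = 0.769). The direction of Fcgr1 was therefore opposite in the 2 fits, and neither passed. Of its close relatives, Fcer1g, the signalling chain that Fcgr1 needs at the surface, was at 905.9 ± 364.8 CPM in Olfr2+ and 678.9 ± 121.0 CPM in Olfr2- (SD, n = 3 each), and the low-affinity receptor Fcgr3 at 421.2 ± 301.1 CPM in Olfr2+ and 51.8 ± 28.0 CPM in Olfr2-. Fcgr3 differed by 3.02 on the log2 scale over all columns and by 0.91 over the shallower ones. None of the 4 Fc receptor genes listed with it passed.

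The 250 bases before the transcription start of Fcgr1 are shown because they hold the hexamer that the macrophage regulator PU.1 (gene Spi1) is known to prefer, GAGGAA, read on the other strand as TTCCTC and printed in capitals; the sequence is from RefSeq, build GRCm38.p6, chr3:96293970-96294219, minus strand.
Fcgr1: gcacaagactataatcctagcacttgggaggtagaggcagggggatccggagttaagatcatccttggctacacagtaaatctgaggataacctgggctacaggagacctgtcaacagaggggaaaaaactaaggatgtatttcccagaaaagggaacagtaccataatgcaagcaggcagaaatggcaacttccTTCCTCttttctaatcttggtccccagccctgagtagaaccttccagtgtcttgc
The windows of Itgam (chr7:128062390-128062639, plus strand) and Cd68 (chr11:69666171-69666420, minus strand) of the same build are set beside it, with the hexamer in capitals on either strand. Itgam holds it at 2 places and Cd68 at 1.
Itgam: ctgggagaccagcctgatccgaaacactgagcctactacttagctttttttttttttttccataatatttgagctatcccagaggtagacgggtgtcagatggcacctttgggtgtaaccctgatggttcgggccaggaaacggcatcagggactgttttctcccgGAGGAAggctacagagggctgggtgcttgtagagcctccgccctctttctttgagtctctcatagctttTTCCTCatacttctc
Cd68: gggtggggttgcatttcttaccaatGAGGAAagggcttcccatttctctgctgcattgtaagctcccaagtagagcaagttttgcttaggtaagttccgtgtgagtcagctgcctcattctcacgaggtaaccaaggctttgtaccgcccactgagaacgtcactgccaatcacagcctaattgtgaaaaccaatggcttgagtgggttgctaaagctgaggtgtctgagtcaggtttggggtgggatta
RefSeq windows were at hand for 7 of the 10 genes, and 5 of these 7 held the hexamer on either strand in at least 1 window, the others being Ptprc and Aif1; those of Lyz2 and Mertk did not. Counted by window, 5 of the 8 windows of these genes held it, and so did 23.3% of 32851 promoter windows of the same length. These matches describe letters and not binding, which was not measured.

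Spi1 was at 325.3 ± 58.6 TMM-scaled CPM in Olfr2+ and 132.0 ± 16.8 CPM in Olfr2- (SD, n = 3 each). With a log2 difference of 1.30 ± 0.90, and of 1.22 over the shallower columns, it missed the threshold (edgeR, adjusted p = 0.284). Of the 5 transcription factors listed with the 10 genes none passed. Cebpb, of the C/EBP family, was at 697.0 ± 912.3 CPM in Olfr2+ and 1094 ± 84.5 CPM in Olfr2- (SD, n = 3 each).

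Csf1r, the receptor for CSF1 and IL-34, was the fourth of the 10 genes per kilobase. It had a lowest, median and highest level of 221.3, 532.1 and 986.8 CPM of the column total in the deep Olfr2+ columns, and 311.6, 1220 and 283.6 CPM in Olfr2+ columns 3D, 4A and 4B. Olfr2- columns 1A, 3A, 3B, 4A and 4B had 49.7, 1297, 399.3, 285.7 and 266.6 CPM. Both the lowest and the highest of the 15 values were thus in Olfr2- columns. Summed, Csf1r was at 1359, 521.6 and 928.0 TMM-scaled CPM in Olfr2+ samples 2, 3 and 4, against 30.1, 720.1 and 183.2 CPM in Olfr2- samples 1, 3 and 4. Olfr2- sample 3 exceeded Olfr2+ sample 3, and the log2 difference of 1.59 ± 0.92 missed the threshold (edgeR, adjusted p = 0.212). From the shallower columns it was 1.04 ± 1.06 (edgeR, adjusted p = 0.744). In the annotation used for lengths, 15.1% of the exon bases of Csf1r are shared with the neighbouring gene Hmgxb3, and reads there cannot be told apart. The ligand gene Csf1 was at 227.9 ± 233.1 CPM in Olfr2+ and 10.9 ± 3.28 CPM in Olfr2- (SD, n = 3 each), a log2 difference of 4.38 that missed the threshold (edgeR, adjusted p = 0.060) and was 0.14 over the shallower columns. The other ligand gene, Il34, stayed below 1 CPM on average, at 0.117 ± 0.111 CPM in Olfr2+ and 0.481 ± 0.148 CPM in Olfr2-.

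Mertk, a receptor tyrosine kinase that binds apoptotic cells through the bridging proteins Gas6 and Pros1, was the lowest of the 10 genes per kilobase. Olfr2+ columns ran from 0.335 to 73.2 CPM of the column total with a median of 6.28, and Olfr2- columns 1A, 3A, 3B, 4A and 4B had 4.86, 1.26, 3.11, 1.91 and 1.56 CPM. Its counts in single columns lay between 32 and 5657. The summed samples had 6.65, 53.7 and 17.2 TMM-scaled CPM in Olfr2+ samples 2, 3 and 4, against 2.94, 1.46 and 1.16 CPM in Olfr2- samples 1, 3 and 4. These did not overlap, and all 3 Olfr2+ samples were higher, as they were for 13.5% of all genes tested. In CPM of the sample total they overlapped, with 3.22 in Olfr2+ sample 2 and 4.86 in Olfr2- sample 1. The log2 difference of 3.80 ± 1.54 missed the threshold (edgeR, adjusted p = 0.110). Over the shallower columns it was 2.52 ± 1.42 (edgeR, adjusted p = 0.527), and the groups overlapped there. Among the relatives and ligands of Mertk, 1 of 4 passed, Gas6, which was higher in Olfr2+ (1267 ± 1067 CPM) than in Olfr2- (39.7 ± 20.4 CPM; SD, n = 3 each), by a log2 difference of 4.996 ± 1.07 (edgeR, adjusted p = 0.030). Gas6 differed by 1.08 ± 1.25 over the shallower columns (adjusted p = 0.773). Axl, the related receptor, was at 462.7 ± 296.4 CPM in Olfr2+ and 30.8 ± 18.6 CPM in Olfr2- and did not pass (log2 difference 3.91, adjusted p = 0.054; 1.18 over the shallower columns).

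Itgam, the alpha chain of CD11b/CD18 (complement receptor 3), was the only one of the 10 genes whose deep columns stood apart from all others. It had a lowest, median and highest level of 24.7, 52.5 and 131.6 CPM of the column total in the 7 deep Olfr2+ columns, below 367.2, 347.1 and 297.9 CPM in Olfr2+ columns 3D, 4A and 4B, and below 341.9, 208.0, 517.8, 151.0 and 283.2 CPM in Olfr2- columns 1A, 3A, 3B, 4A and 4B. Of all genes tested, 9.46% had all 7 deep columns below the other 8 on this scale and 1.41% had them above. The 3 Olfr2+ columns of like depth lay inside the range of the Olfr2- columns. TMM-scaled CPM were 94.1, 183.8 and 374.9 in Olfr2+ samples 2, 3 and 4, against 207.0, 242.7 and 137.6 in Olfr2- samples 1, 3 and 4. With edgeR the log2 difference was 0.15 ± 0.92 (adjusted p = 0.911). Over the shallower columns it was 1.06 ± 0.92 (adjusted p = 0.691), with 494.1 and 478.6 CPM in Olfr2+ samples 3 and 4 above 223.4, 308.1 and 170.1 CPM in Olfr2- samples 1, 3 and 4. Of the 10 genes Itgam was the only one whose Olfr2+ samples of that fit lay all above its Olfr2- samples, as 9.28% of all genes did; none lay all below, as did 17.1%.

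The row used for Itgam was the one with the larger count. The other row with its symbol, a gene model that covers 68.7% of the exon bases of Itgam in the annotation used, held 11899 counts in all, of which 10939 fell in column 2A of Olfr2+ (127 CPM). In that column the second row exceeded the first, at 57.6 CPM, so reads of the shared exons may be divided between them in a way that counting cannot settle. The partner chain Itgb2 (CD18) was at 841.7 ± 268.0 TMM-scaled CPM in Olfr2+ and 304.3 ± 222.1 CPM in Olfr2- (SD, n = 3 each), and none of the 5 integrin genes listed with Itgam passed. Itgal, the alpha chain of LFA-1, was at 363.5 ± 199.4 CPM in Olfr2+ and 367.6 ± 284.2 CPM in Olfr2-.

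Cd14, the co-receptor that hands bacterial lipopolysaccharide to Tlr4, was 1 of the 2 genes that passed. Over all genes, 1.12% were called higher and 0.46% lower in Olfr2+. Cd14 was at 564.4, 681.5 and 1225 TMM-scaled CPM in Olfr2+ samples 2, 3 and 4, against 15.9, 109.3 and 24.4 CPM in Olfr2- samples 1, 3 and 4. The groups did not overlap, as was so in this direction for 13.5% of all genes tested. Cd14 was higher in Olfr2+ by a log2 difference of 4.05 ± 0.99 (edgeR, adjusted p = 0.043). In single columns the picture was less even. Its lowest, median and highest levels were 54.1, 141.4 and 876.1 CPM of the column total in the deep Olfr2+ columns, with 28.1, 913.1 and 1252 CPM in columns 3D, 4A and 4B, against 26.3, 82.4, 252.0, 58.0 and 9.64 CPM in Olfr2- columns 1A, 3A, 3B, 4A and 4B. The 4 deep columns 2A, 2C, 2D and 3B and column 3D had fewer than 252.0 CPM, the highest Olfr2- value.

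Over the shallower columns Cd14 differed by 3.69 ± 1.29 on the log2 scale (edgeR, adjusted p = 0.424), with 37.8 and 1564 TMM-scaled CPM in Olfr2+ samples 3 and 4, against 17.2, 138.8 and 30.2 CPM in Olfr2- samples 1, 3 and 4. There it rested on Olfr2+ sample 4, without which it was -0.79 ± 1.86. Over all columns the call was lost without any 1 of Olfr2+ samples 2, 3 and 4 (adjusted p = 0.110, 0.081 and 0.058) or of Olfr2- samples 1 and 4 (0.086 and 0.101), and held without Olfr2- sample 3 (0.048), where the log2 difference was 5.50. The partner Tlr4 was at 78.5 ± 90.1 CPM in Olfr2+ and 3.88 ± 0.57 CPM in Olfr2- (SD, n = 3 each) and missed the threshold (log2 difference 4.34, adjusted p = 0.077; 0.75 over the shallower columns). Neither Ly96 (MD-2) nor Cd180, the other partners listed, passed.

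Cd68, a heavily glycosylated protein of late endosomes and lysosomes, was at 546.6, 514.1, 71.6 and 172.3 CPM of the column total in deep Olfr2+ columns 2A, 2B, 2C and 2D and at 258.2, 282.5 and 488.7 CPM in 3A, 3B and 3C. Olfr2+ columns 3D, 4A and 4B had 72.2, 92.5 and 65.4 CPM, against 141.4, 144.0, 58.3, 157.4 and 82.1 CPM in Olfr2- columns 1A, 3A, 3B, 4A and 4B. The 3 Olfr2+ columns of like depth thus lay within the range of the Olfr2- columns, and 6 of the 7 deep columns lay above it. TMM-scaled CPM were 670.6, 434.6 and 92.8 in Olfr2+ samples 2, 3 and 4, against 85.6, 83.9 and 82.4 in Olfr2- samples 1, 3 and 4. The groups did not overlap, and all 3 Olfr2+ samples were higher, as they were for 13.5% of all genes tested. The 3 Olfr2- samples were nearly equal on this scale only. In CPM of the sample total they had 141.4, 112.0 and 124.7, against 325.0, 306.2 and 80.5 in Olfr2+ samples 2, 3 and 4. There the groups overlapped, with Olfr2+ sample 4 below all 3 Olfr2- samples. Cd68 differed by 2.25 ± 0.96 on the log2 scale and missed the threshold (edgeR, adjusted p = 0.122); over the shallower columns it differed by 0.11 ± 1.16 (adjusted p = 0.979). Lamp1, another lysosomal membrane protein, was at 1470 ± 892.3 CPM in Olfr2+ and 267.8 ± 220.0 CPM in Olfr2- (SD, n = 3 each; adjusted p = 0.084), a log2 difference of 2.46 that was 0.81 over the shallower columns.

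Lyz2, the macrophage and neutrophil lysozyme, was the most abundant of the 10 genes per kilobase and the other one that passed. It was at 16048, 9918 and 2068 TMM-scaled CPM in Olfr2+ samples 2, 3 and 4, against 433.2, 1250 and 2530 CPM in Olfr2- samples 1, 3 and 4. Olfr2- sample 4 exceeded Olfr2+ sample 4, so the groups overlapped. Lyz2 was higher in Olfr2+ by 2.73 ± 0.72 on the log2 scale (edgeR, adjusted p = 0.049). In CPM of the column total, the deep Olfr2+ columns had a lowest, median and highest level of 4740, 7285 and 10335, and columns 3D, 4A and 4B had 1320, 1523 and 2135, against 715.7, 2183, 809.1, 753.3 and 7847 in Olfr2- columns 1A, 3A, 3B, 4A and 4B. Apart from Olfr2- column 4B, every shallower column was lower than every deep column.

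Over the shallower columns Lyz2 differed by 0.35 ± 0.72 (edgeR, adjusted p = 0.878). Over all columns its call held without Olfr2+ sample 4 (adjusted p = 0.044) and without Olfr2- sample 4 (0.046), and was lost without Olfr2+ samples 2 or 3 (0.158 and 0.082) or Olfr2- samples 1 or 3 (0.099 and 0.067). Lyz1, a near-identical copy of Lyz2, also passed, at 2075 ± 1758 CPM in Olfr2+ and 67.5 ± 44.0 CPM in Olfr2- (SD, n = 3 each; log2 difference 4.94 ± 1.01, adjusted p = 0.028). Reads of this pair may have been divided between them, and both levels are uncertain for that reason. Lyz1 differed by 0.83 over the shallower columns (adjusted p = 0.825).

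Aif1, which encodes IBA1, ranged in the deep Olfr2+ columns from 1.89 to 298.8 CPM of the column total with a median of 28.3. Olfr2+ columns 3D, 4A and 4B had 16.8, 14.0 and 4.38 CPM, against 37.0, 18.0, 15.6, 13.6 and 44.2 CPM in Olfr2- columns 1A, 3A, 3B, 4A and 4B. The Olfr2- columns were much closer to each other than the deep columns were. TMM-scaled CPM were 228.2, 23.0 and 11.2 in Olfr2+ samples 2, 3 and 4, against 22.4, 12.8 and 17.7 in Olfr2- samples 1, 3 and 4. Aif1 differed by 2.31 ± 1.27 on the log2 scale over all columns (edgeR, adjusted p = 0.193) and by -0.17 ± 1.43 over the shallower ones (adjusted p = 0.973), so its direction depended on the depth set.

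Ptprc, the tyrosine phosphatase CD45 of leukocytes, had the smallest spread of the 10 between columns that share the second name of their description label. It was at 1008, 775.1 and 1999 TMM-scaled CPM in Olfr2+ samples 2, 3 and 4, against 504.0, 1241 and 1186 CPM in Olfr2- samples 1, 3 and 4. The groups overlapped, and Ptprc differed by 0.37 ± 0.73 on the log2 scale (edgeR, adjusted p = 0.717), or by 0.58 ± 0.72 over the shallower columns (adjusted p = 0.789). In CPM of the column total, Ptprc ran from 301.1 to 791.6 in the deep Olfr2+ columns and was at 755.0, 1590 and 1917 in columns 3D, 4A and 4B, against 832.6, 1714, 1561, 2704 and 611.9 in Olfr2- columns 1A, 3A, 3B, 4A and 4B. Of 5 other pan-leukocyte genes none passed. Laptm5, a lysosomal membrane protein of blood cells, was at 1321 ± 51.1 CPM in Olfr2+ and 604.6 ± 105.2 CPM in Olfr2-, and the tetraspanin gene Cd53 at 821.9 ± 115.6 CPM in Olfr2+ and 776.0 ± 270.7 CPM in Olfr2- (SD, n = 3 each). In CPM of the sample total the groups overlapped for Laptm5. It was at 668.9, 909.4 and 1122 in Olfr2+ samples 2, 3 and 4, against 815.8, 938.4 and 934.1 in Olfr2- samples 1, 3 and 4.

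**Figure D2:**
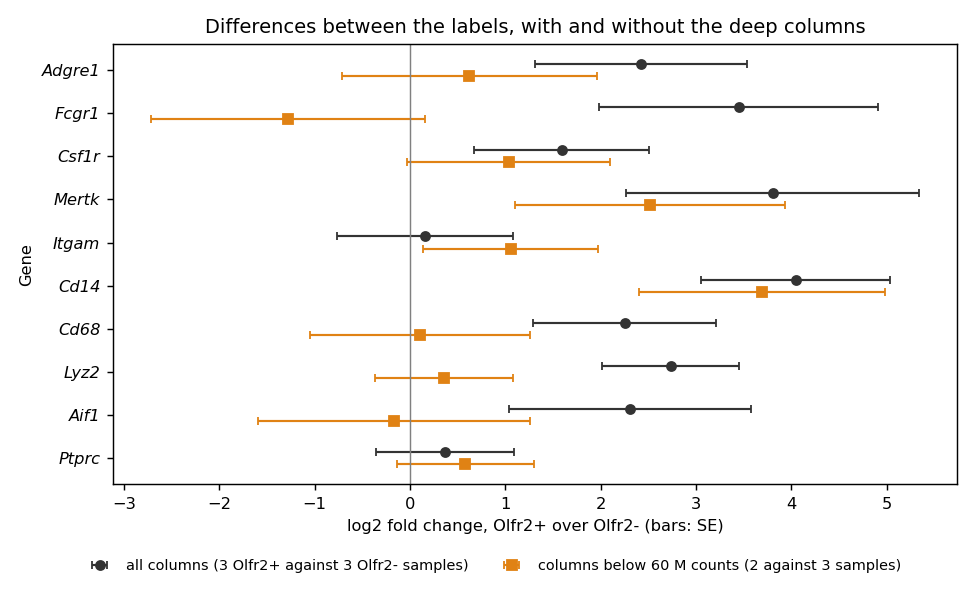
Log2 fold change of Olfr2+ over Olfr2- for each gene with its standard error, over all columns (circles, 3 Olfr2+ and 3 Olfr2- samples) and over the shallower columns (squares, 2 and 3 samples). Cd14 had 4.05 and 3.69, Lyz2 2.73 and 0.35, and Fcgr1 3.45 and -1.28.

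As a list, 2 of the 10 genes passed as higher in Olfr2+ and none as lower, while 8 did not pass. Before adjustment 6 of the 10 had p under 0.05, as had 7821 of all 24362 genes tested. Over all genes tested, 1.12% passed as higher and 0.46% as lower. When only the 8504 genes averaging at least 10 CPM were tested, 529 passed with TMM factors kept, 3 of them as lower. In that fit 1 of the 10 genes passed, as higher. With TMM factors recomputed from the 8504 genes, none passed. The median difference of the 10 genes on the log2 scale was 2.37, beside 0.24 for all genes tested. All 10 averaged at least 10 CPM, and among the 8504 genes tested at that level the median was 1.67, or 0.17 with TMM factors recomputed from these genes, which put the median of the 10 at 0.61. All 10 estimates were above 0 with TMM scaling, but Itgam (-0.81) and Ptprc (-0.63) turned negative when library totals alone were used, a scaling that moved the median of all genes to -0.88, and Csf1r (-0.039), Itgam (-1.59), Cd68 (-0.35), Aif1 (-0.56) and Ptprc (-1.26) did so with upper quartile scaling, which moved it to -1.82. In TMM-scaled CPM, for 3 genes (Mertk, Cd14 and Cd68) the 3 Olfr2+ samples lay all above the 3 Olfr2- samples, as they did for 13.5% of all genes. No member was all below on that scale, as were 22.1%. In CPM of the sample total Mertk and Cd68 overlapped, and Cd14 did not. Over the shallower columns edgeR called none of the 10, and 0% of 29989 genes, although 3127 had p under 0.05 before adjustment. There 8 of 10 estimates were above 0, with a median of 0.60 for the 10 and of -0.43 for all genes. DESeq2 called 4 of the 10 higher over all columns (Fcgr1 and Mertk besides Cd14 and Lyz2), where it called 12.5% of all genes higher and 8.21% lower. With the 15 columns taken as samples edgeR called 1, Lyz2, beside 3.18% of genes higher and 1.2% lower, and with columns scaled to the same total before summing it called 1, Cd14, beside 0.926% higher. Over single columns no member had all 10 Olfr2+ values on one side of all 5 Olfr2- values, whereas 0.0821% of genes had them all above and 1.78% all below.

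Of 42 partner genes, 4 passed as higher (Gas6, Lyz1, C1qb and C1qc), none as lower, and 38 did not pass. Over all genes, 1.12% were called higher and 0.46% lower. The median log2 difference of the 42 was 1.55, with 36 of 42 above 0. It was 0.24 for all genes tested, with 12795 of 24362 above 0, and 1.67 for the 8504 averaging at least 10 CPM. Over the shallower columns the median was 0.97 for the 42 and -0.43 for all genes, and none passed. C1qb, a chain of complement C1q made by macrophages, was at 1111 ± 1112 CPM in Olfr2+ and 30.7 ± 16.8 CPM in Olfr2-, and C1qc at 733.8 ± 766.4 CPM in Olfr2+ and 37.3 ± 18.4 CPM in Olfr2- (SD, n = 3 each; adjusted p = 0.038 and 0.047). In both, Olfr2+ and Olfr2- samples overlapped, and the log2 differences of 5.18 and 4.30 were 1.77 and 0.97 over the shallower columns. Ctss, a lysosomal protease of antigen-presenting cells, and Tyrobp, an adaptor of myeloid receptors, did not pass but had nearly the same log2 difference over all columns (1.75 and 0.82) as over the shallower ones (1.77 and 0.81). Both differences are after TMM scaling, and in CPM of the sample total the groups overlapped for both genes. Tyrobp was there at 354.8, 476.4 and 568.7 in Olfr2+ samples 2, 3 and 4, against 648.8, 491.1 and 621.6 in Olfr2- samples 1, 3 and 4. Ctss was at 1457, 1744 and 2694, against 1866, 976.3 and 1040.

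Summed markers of fibroblasts and of B cells differed between the deep columns, all Olfr2+, and the other columns. Among the shallower columns the ranges of both labels overlapped. The 10 fibroblast genes, all detected in every column, summed to 30989 to 40559 CPM of the column total in the deep Olfr2+ columns and 2644 to 5110 CPM in Olfr2+ columns 3D, 4A and 4B, against 2216 to 4015 CPM in the Olfr2- columns. Of the 10, 9 were called higher in Olfr2+, led by Dcn, a matrix proteoglycan, at 10164 to 18523 CPM in the deep columns. The 7 B cell genes summed to 213.6 to 5411 CPM in the deep Olfr2+ columns, where Cd79a was at 0 in column 2C, and to 35256 to 55023 CPM in Olfr2+ columns 3D, 4A and 4B, against 22974 to 41895 CPM in the Olfr2- columns; most of it was the immunoglobulin genes Igkc and Ighm. The B cell receptor chains Cd79a and Cd79b did not follow this sum: in the fit they were higher in Olfr2+ by 3.35 and 2.74 on the log2 scale without passing, and Cd79b reached 229.4 CPM in a deep column. The 10 macrophage genes together summed to 7116 to 13198 CPM in the deep Olfr2+ columns and 2960 to 6012 CPM in Olfr2+ columns 3D, 4A and 4B, against 2163 to 9167 CPM in the Olfr2- columns. Fibroblast markers thus exceeded the 10 macrophage genes in every deep column, and B cell genes exceeded them in every other column. Without the deep columns, where the fibroblast sums of both labels overlapped, the log2 difference was 0.35 for Lyz2, 0.11 for Cd68 and 0.62 for Adgre1, against 2.73, 2.25 and 2.42 with them. Without and with them it was 3.69 and 4.05 for Cd14, 2.52 and 3.80 for Mertk, and 1.04 and 1.59 for Csf1r. It was -1.28 and 3.45 for Fcgr1, and -0.17 and 2.31 for Aif1. For Itgam (1.06 and 0.15) and Ptprc (0.58 and 0.37) it was larger without them. The 3.69 of Cd14 became -0.79 without Olfr2+ sample 4. The part of these other cells in the differences was not tested.

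The remaining lists were smaller, and their genes with the highest counts are given with them. Monocyte genes (6, with Plac8 and Ccr2 highest) summed to 438.2 to 707.0 CPM in the deep Olfr2+ columns and 2010 to 3035 CPM in Olfr2+ columns 3D, 4A and 4B, against 1074 to 2954 CPM in the Olfr2- columns. All 6 were detected in every column. Itgam, which blood monocytes and neutrophils also carry, was likewise lower in the deep columns than in the others. Neutrophil genes (8, with S100a9 and S100a8 highest) summed to 94.4 to 394.0 CPM in the deep Olfr2+ columns and 661.4 to 696.5 CPM in Olfr2+ columns 3D, 4A and 4B, against 183.9 to 722.2 CPM in the Olfr2- columns; the defining gene Ly6g was at 0 in 5 deep columns and in Olfr2- columns 4A and 4B, and Camp, Ltf and Mpo were at 0 in at least 3 columns each. Dendritic cell genes (7, with Ccr7 and Cd209a highest) summed to 42.2 to 426.4 CPM in the deep Olfr2+ columns and 321.8 to 2372 CPM in Olfr2+ columns 3D, 4A and 4B, against 461.8 to 1244 CPM in the Olfr2- columns, and all were detected in each column. The endothelial, smooth muscle, T and NK cell, mast cell, erythroid and platelet, and adipocyte and mesothelial lists summed to at most 762.7 CPM in any column. Their part in the levels of the 10 genes was not tested.

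Levels were also set against Ptprc of the same column, which was itself lower in the deep columns (301.1 to 791.6 CPM) than in most of the others, and a ratio to it is raised there for that reason. The ratio of Adgre1 to Ptprc was 0.228 to 0.818 in the deep Olfr2+ columns and 0.0285 to 0.112 in the other Olfr2+ columns, against 0.0114 to 0.0869 in the Olfr2- columns. Lyz2 was 5.99 to 24.2 times Ptprc in the deep Olfr2+ columns and 0.958 to 1.75 times in the other Olfr2+ columns, against 0.279 to 12.8 times in the Olfr2- columns. Cd68 was 0.218 to 1.43 times Ptprc in the deep and 0.0341 to 0.0957 times in the other Olfr2+ columns, against 0.0374 to 0.170 times in Olfr2-. Cd14 was 0.0818 to 1.89 times Ptprc in the deep and 0.0372 to 0.653 times in the other Olfr2+ columns, against 0.0158 to 0.162 times in the Olfr2- columns, and overlapped between all of them. Itgam, which stood apart in CPM, overlapped when divided by Ptprc, at 0.0609 to 0.328 in the deep and 0.155 to 0.486 in the other Olfr2+ columns, against 0.0558 to 0.463 in Olfr2-.

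Each column has a library name of its own, but its description label holds a second name, not explained there, which some columns share. There were 7 pairs with the same second name, and the larger value was divided by the smaller. The median fold was 1.26 for Ptprc, 1.54 for Lyz2, 1.82 for Csf1r, 1.92 for Cd68, 1.96 for Itgam and 2.10 for Adgre1, and it was 3.25 for Aif1, 4.78 for Fcgr1, 5.37 for Cd14 and 12.7 for Mertk. Over 8746 genes with a mean of at least 10 CPM the median of this measure was 3.31 (with 0.5 CPM added to each value), so 7 of the 10 genes were steadier between such columns than the typical gene of that level, and Mertk, Cd14 and Fcgr1 were less steady. Fcgr1 differed 189-fold between Olfr2+ columns 3A and 3B and 73.0-fold between 2A and 2B. Adgre1 differed 23.4-fold between Olfr2- columns 4A and 4B, in which Lyz2 differed 10.4-fold in the other direction. Cd14 differed 25.4-fold between Olfr2+ columns 3C and 3D, a pair in which 3C was above and 3D below 60 M.

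**Figure D3:**
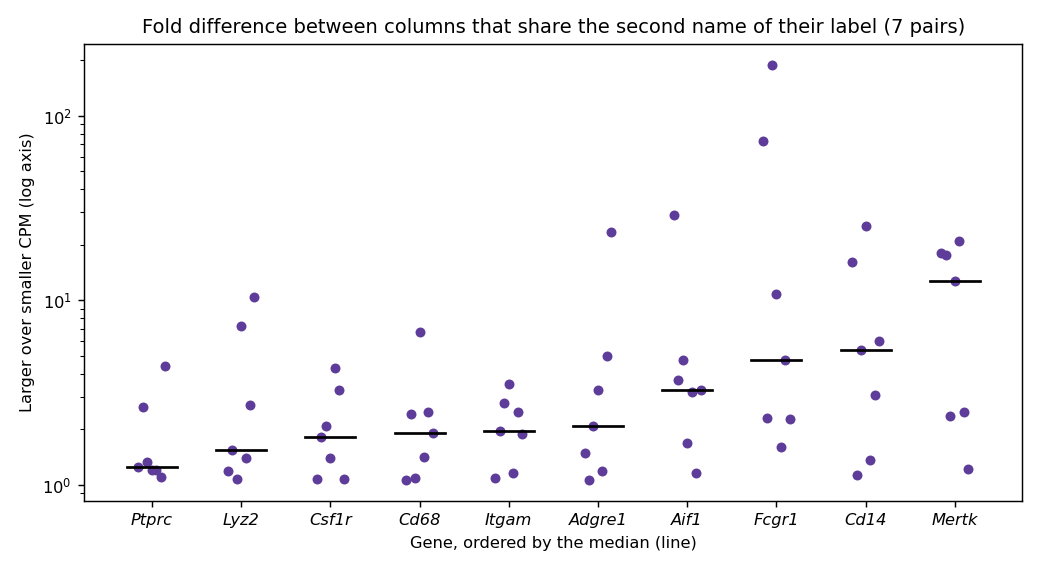
Fold difference (larger over smaller CPM, log axis) of each gene between the columns of each of 7 pairs that share the second name of the description label, with the median as a line and the genes ordered by it. Ptprc had the smallest median, 1.26, and Mertk the largest, 12.7.

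The 10 genes did not move as a block across columns. Over the 15 columns the 45 pairs of genes had a median Spearman rho of 0 in CPM, with 22 pairs positive, and these columns share depth sets and numbered samples. Fcgr1 and Aif1 had the highest rho (0.74), followed by Adgre1 and Cd68 (0.63), Itgam and Ptprc (0.61), and Cd68 and Lyz2 (0.57). Lyz2 and Ptprc had a rho of -0.74, Itgam and Lyz2 of -0.66, and Adgre1 and Itgam of -0.63. Adgre1 and Fcgr1, both genes of the sort gate, are plotted against each other: deep columns 2A and 3B had 311.9 and 258.7 CPM of Adgre1 with 1.40 and 0.544 CPM of Fcgr1.

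**Figure D4:**
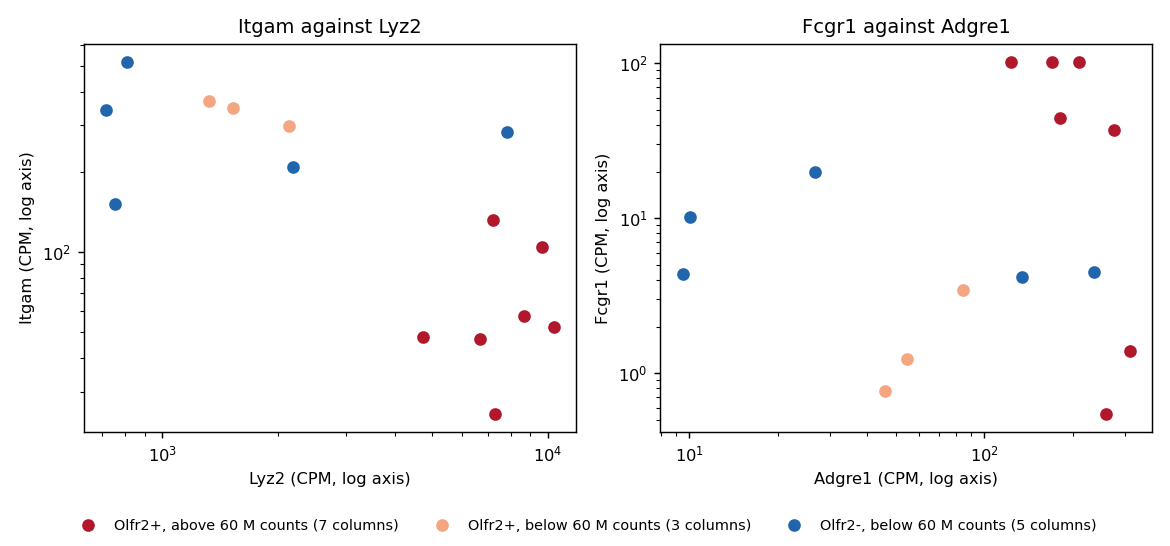
CPM of the column total of Itgam against Lyz2 (left) and of Fcgr1 against Adgre1 (right) in each of the 15 columns, on log axes. The 7 deep Olfr2+ columns lie at high Lyz2 and low Itgam, and the deep columns 2A and 3B lie at high Adgre1 with low Fcgr1.

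Among 8371 other genes with a mean of at least 10 CPM, those whose pattern over the 15 columns was most like Adgre1 were Atp2a2 (Spearman rho 0.92), Prkcdbp (0.89), Aldh1a2 (0.89), mt-Cytb (0.86) and Mtx2 (0.86). None of them is among the macrophage genes listed. All 5 had higher medians in the deep Olfr2+ columns than in the other columns, for example 146.9 CPM of Atp2a2, against 34.6 CPM in the other Olfr2+ columns and 23.2 CPM in the Olfr2- columns. For Fcgr1 they were Ptges (0.95), Mfsd10 (0.92), Ccdc91 (0.91), Mrpl49 (0.90) and Dhrs4 (0.90), which also were highest in the deep columns. With Pearson's correlation of log2(CPM + 1) in place of Spearman's, 2 of the 5 for Adgre1 and 3 of the 5 for Fcgr1 stayed among the 5 most alike.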

How the data were processed

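The deposited values are counts of reads per gene, not normalized, in 15 columns, per the file headers; GRCm39 as build and the tools DESeq2 1.34, DRAGEN and STAR 2.7.1 come from the submitters' processing notes, which give none of them a role, and the strand setting is not given in the sources used here. All rows name a gene. Of the gene identifiers, 98.9% matched GENCODE M21 (GRCm38) without their version and 81.9% with it, so no gene coordinates of the table are given; lengths are those of the principal transcript there, and promoter windows are from RefSeq on GRCm38.p6.

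Titles were read as a sample number followed by a repeat letter, a reading the labels do not state. Separate animals behind the samples are not stated either, and p-values then cover the spread between samples only, possibly a technical one. Counts were summed per numbered sample and tested across all genes with edgeR 4.0.16 (R 4.3.3; quasi-likelihood F test, TMM, edgeR's expression filter by group, Benjamini-Hochberg adjusted p under 0.05); standard errors come from the F statistic. Mean ± SD are of TMM-scaled CPM; other CPM are of the column total. Alternatives used DESeq2 1.42.0, limma 3.58.1, other scalings, filters and units, the depth set, and the omission of each sample. Without molecular identifiers, PCR copies of a molecule cannot be collapsed.

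Named were all 10 members, partner genes that passed and otherwise up to 2 of each role by mean CPM, up to 2 genes of each other cell type, and the 5 genes most like Adgre1 and Fcgr1 by Spearman rho, gene models left out. Beyond that rule, Ly96, Il34, Itgal, Cd79a, Cd79b, Ly6g, Camp, Ltf and Mpo were named after their values were seen, and 1 gene that the rule names is not reported here. The members, lists, tests and the 60 M division were chosen with earlier results of these data known.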

Additional observations from a re-analysis of the deposited data

Results flagged for a closer look

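Values were examined for a single column far from the rest of its label, in 20 groups (10 genes in each label), with Dixon's criterion at 95%; 4 stood apart. Chance flags about 1 in 20 groups of normally distributed values; CPM are skewed, and the share for such values was not computed. Mertk was at 73.2 CPM in Olfr2+ column 3B, and the next of the 10 Olfr2+ columns had 31.0 CPM. Aif1 was at 298.8 CPM in Olfr2+ column 2C, and the next had 80.8 CPM. Csf1r was at 1297 CPM in Olfr2- column 3A, and the next of the 5 Olfr2- columns had 399.3 CPM. Lyz2 was at 7847 CPM in Olfr2- column 4B, and the next had 2183 CPM; the same column held 10.04 CPM of Adgre1.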

How the results depend on the processing

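The number of the 10 genes that passed, 2 over all columns, was 1 with RLE scaling, 0 with library totals alone and with upper quartile scaling, 1 and 0 when genes under a mean of 10 CPM were left out, with TMM factors kept or recomputed, 4 with DESeq2 (Fcgr1 and Mertk besides Cd14 and Lyz2), 0 with limma-voom, 1 with the 15 columns as samples, 1 with columns scaled to the same total, 0 below 60 M and 0 with the depth set as a covariate. Over all genes the count, 385 (273 higher and 112 lower), was 396 with library totals alone (86 and 310), 1070 with upper quartile scaling (11 and 1059), 881 with no filter, 529 under the 10 CPM filter with factors kept (3 of them lower) and 0 with factors recomputed (1389 at an unadjusted p under 0.05), 6457 with DESeq2, 0 with limma-voom (7537 unadjusted), 893 with 15 columns, 1568 with the 8 second names of the description labels as samples, 0 below 60 M (3127 unadjusted) and 0 with the depth covariate (1432 unadjusted). Leaving out 1 sample gave 6 to 1086 genes and 0 to 1 of the 10 genes; below 60 M it gave 0 each time. With the replicate block, 2 genes and 0 of the 10 passed. Same-numbered samples deviated from their group means with correlations of 0.013 and -0.072. These cannot decide whether such samples share an origin, because Olfr2+ sample 3 is mostly deep and Olfr2- sample 3 is not. This pairing is not read further.

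Signs turned negative with library totals alone for Itgam (-0.81) and Ptprc (-0.63), with upper quartile scaling for Csf1r (-0.039), Itgam (-1.59), Cd68 (-0.35), Aif1 (-0.56) and Ptprc (-1.26), with factors recomputed for Itgam (-1.18) and Ptprc (-0.88), with limma-voom for Itgam (-0.15), with 15 columns for Itgam (-0.37) and Ptprc (-0.21), with the 8 second names of the description labels as samples for Itgam (-0.15), below 60 M for Fcgr1 (-1.28) and Aif1 (-0.17), and with the depth covariate for Fcgr1 (-2.12), Cd68 (-0.26), Lyz2 (-0.16) and Aif1 (-0.75). Without 1 sample, Itgam took -0.50 to 0.60 and Ptprc -0.19 to 0.72 over all columns, and over the shallower ones Cd14 took -0.79 to 5.095, Cd68 -0.10 to 0.28, Lyz2 -0.087 to 1.06, Aif1 -0.50 to 0.072 and Ptprc -0.30 to 1.12. The cause was not tested. Of 200 alternative values over all columns, 149 kept direction and side of the threshold, 26 lost the threshold, 2 gained it and 23 changed sign; below 60 M, 44 of 50 kept both and 6 changed sign. Adgre1, Mertk and Cd14 were above 0 in 20 of 20 alternatives over all columns; Cd14 passed in 7 and Lyz2 in 6.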
